A study of Homo sapiens with 6 samples.

Results

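The 8 genes that encode human ligands of NKG2D (MICA, MICB, ULBP1, ULBP2, ULBP3, RAET1E, RAET1G and RAET1L) were described in A375, a widely used melanoma cell line. They were taken by symbol from a table of 25343 gene lines, in which each of the 8 had 1 line. Parental A375 cells had received panobinostat, a broad inhibitor of histone deacetylases, at 50 nM for 24 h, or an equal volume of PBS as vehicle (0 nM). Cells were lifted with Versene, a chelating solution, and bulk RNA-seq was made in 3 libraries per group. The groups share the cell line and the exposure time, and all values come from this single line, dose and time. The labels do not say whether libraries of a group were separate cultures, so every p-value refers to spread among libraries that could be purely technical.

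NKG2D is an activating receptor, encoded by KLRK1, on natural killer cells and on subsets of T cells. Its ligands resemble MHC class I heavy chains but bind neither peptide nor beta-2 microglobulin, and they are scarce on most healthy cells and appear on stressed, infected or transformed ones. MICA and MICB are transmembrane proteins encoded within the MHC. The ULBP and RAET1 proteins are encoded in a cluster on the other arm of the same chromosome and lack the alpha 3 domain. ULBP1, ULBP2, ULBP3 and RAET1L (also called ULBP6) are held in the membrane by a GPI anchor, whereas the genes RAET1E (ULBP4) and RAET1G (ULBP5) encode transmembrane segments. In melanoma, shedding of MICA and MICB from the cell surface is a known route of escape from NKG2D.

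Promoter windows of 4 ligand genes are shown because they form 2 pairs of relatives with unlike RNA responses in what follows: MICA beside MICB, and RAET1G beside ULBP2. Each window runs from 250 bases before to 50 bases after a RefSeq transcript start in GRCh38.p14, a build used for these sequences only, since no source used here names the build behind the counts. Of the 8 ligands, 8 had a window in that table; RAET1E had 3, of which the first listed is counted here. Capitals mark matches, on either strand, to a GC box, a CCAAT box or a heat shock element, and no other letters are in capitals.
MICA, chr6:31403345-31403644, plus strand: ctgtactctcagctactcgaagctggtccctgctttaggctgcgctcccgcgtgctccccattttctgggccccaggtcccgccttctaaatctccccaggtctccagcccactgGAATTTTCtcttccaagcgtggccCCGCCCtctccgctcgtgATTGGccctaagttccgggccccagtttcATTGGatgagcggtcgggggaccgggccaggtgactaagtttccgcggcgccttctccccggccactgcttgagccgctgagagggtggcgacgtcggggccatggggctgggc
MICB, chr6:31497895-31498194, plus strand: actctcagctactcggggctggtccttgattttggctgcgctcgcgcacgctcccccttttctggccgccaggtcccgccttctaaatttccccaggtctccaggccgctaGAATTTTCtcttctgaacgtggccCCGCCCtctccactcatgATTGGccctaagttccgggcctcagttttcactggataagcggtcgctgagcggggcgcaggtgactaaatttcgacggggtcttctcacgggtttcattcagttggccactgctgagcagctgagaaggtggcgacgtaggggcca
ULBP2, chr6:149941764-149942063, plus strand: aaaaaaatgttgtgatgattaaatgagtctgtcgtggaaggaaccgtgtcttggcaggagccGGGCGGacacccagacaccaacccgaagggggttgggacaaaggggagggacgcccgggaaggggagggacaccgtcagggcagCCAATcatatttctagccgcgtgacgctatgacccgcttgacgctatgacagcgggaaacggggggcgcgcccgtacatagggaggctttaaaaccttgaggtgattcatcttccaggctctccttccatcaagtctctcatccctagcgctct
RAET1G, chr6:149923072-149923371, minus strand: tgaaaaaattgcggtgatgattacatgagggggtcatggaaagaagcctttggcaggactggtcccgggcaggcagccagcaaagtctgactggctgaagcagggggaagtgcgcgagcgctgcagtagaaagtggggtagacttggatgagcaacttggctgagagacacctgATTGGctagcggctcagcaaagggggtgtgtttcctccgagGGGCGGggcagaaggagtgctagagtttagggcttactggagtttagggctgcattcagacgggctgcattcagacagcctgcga

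The MICA and MICB windows were identical at 246 of 284 aligned bases (86.6%), and those of ULBP2 and RAET1G at 170 of 271 (62.7%). MICA and MICB each held 1 heat shock element (GAANNTTC), 135 and 139 bases upstream of the annotated start, a motif found in 6.77% of 35116 promoter windows of the same length and in the counted window of 2 of the 8 ligands. A GC box (GGGCGG) was present in that of 6 of the 8 ligands, against 45% of all windows. A CCAAT box was present in 5 of 8, against 34.6%, and MICA held 2 copies where MICB held 1. A TATA box (TATAAA), also searched on both strands, was present in 1 of 8 (ULBP1), against 11.5%. No match overlapped another in the 4 windows shown. These matches describe letters and are not evidence of binding.

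Reads summed over genes to between 34738362 and 38944399 per vehicle library and between 32293283 and 36201208 per panobinostat library, so that a floor of 3 counts lies between 0.077 and 0.0929 CPM (counts scaled to a common library size, as used throughout). The identity of the line was checked on 9 genes of melanoma and neural crest lineage, of which 9 were detected. Their summed level was 2424 to 2563 CPM in vehicle and 874 to 939 CPM with panobinostat. Of the 9 genes, 7 were called lower and 2 higher, against 41.0% lower and 41.8% higher over all genes tested. The part of this in the ligand values was not tested. In bulk RNA, fewer cells of a type and less RNA per cell cannot be told apart. Of 13 lymphocyte, natural killer and myeloid markers, 7 had no count in any vehicle library. Their summed level was 5.42 to 6.51 CPM in vehicle and 4.18 to 4.53 CPM with panobinostat, most of it LYZ, and KLRD1 and MS4A1 were at 0 in all 6 libraries.

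The ligand transcripts were scarce in vehicle. The 8 genes together held 1191, 1044 and 1210 counts in vehicle replicates 1, 2 and 3 and 1791, 1840 and 1742 with panobinostat. Scaled by TMM library sizes, the vehicle sum was 30.8 ± 0.552 CPM and the panobinostat sum 51.2 ± 2.35 CPM (mean ± SD, n = 3 per group, as for all levels given), a 1.66-fold ratio of the means. The ranges did not overlap, from 30.3 to 31.4 CPM against 49.5 to 53.9 CPM. The exact two-sided permutation test gave p = 0.1, the smallest that 3 against 3 libraries can give. Of the difference of 20.4 CPM, MICA accounted for 67.9%, ULBP2 for 13.3%, RAET1G for 8.04%, MICB for 7.89% and ULBP3 for 4.19%. Leaving MICA out, the vehicle sum of 22.9 ± 0.202 CPM stood against 29.4 ± 1.40 CPM after treatment, a 1.29-fold ratio.

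Of the 6 ligands with enough counts to test, 5 rose and 0 fell by quasi-likelihood testing in edgeR (Benjamini-Hochberg adjusted over all genes), and RAET1E did not pass. Among all 15499 genes tested, 41.8% were called higher and 41.0% lower, so a call alone sets a gene apart from few others. Library ranges of the 2 groups were separate for 5 of the 6, a share close to the 83.4% over all genes. The median log2 change of the 6 was 0.46, against 0.01 over all genes tested. ULBP1 and RAET1L are outside these counts because their counts were too low. RAET1G entered the test only through its panobinostat libraries and so had to differ, which leaves 4 of 5 ligands higher among those that could have gone either way.

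**Figure D1:**
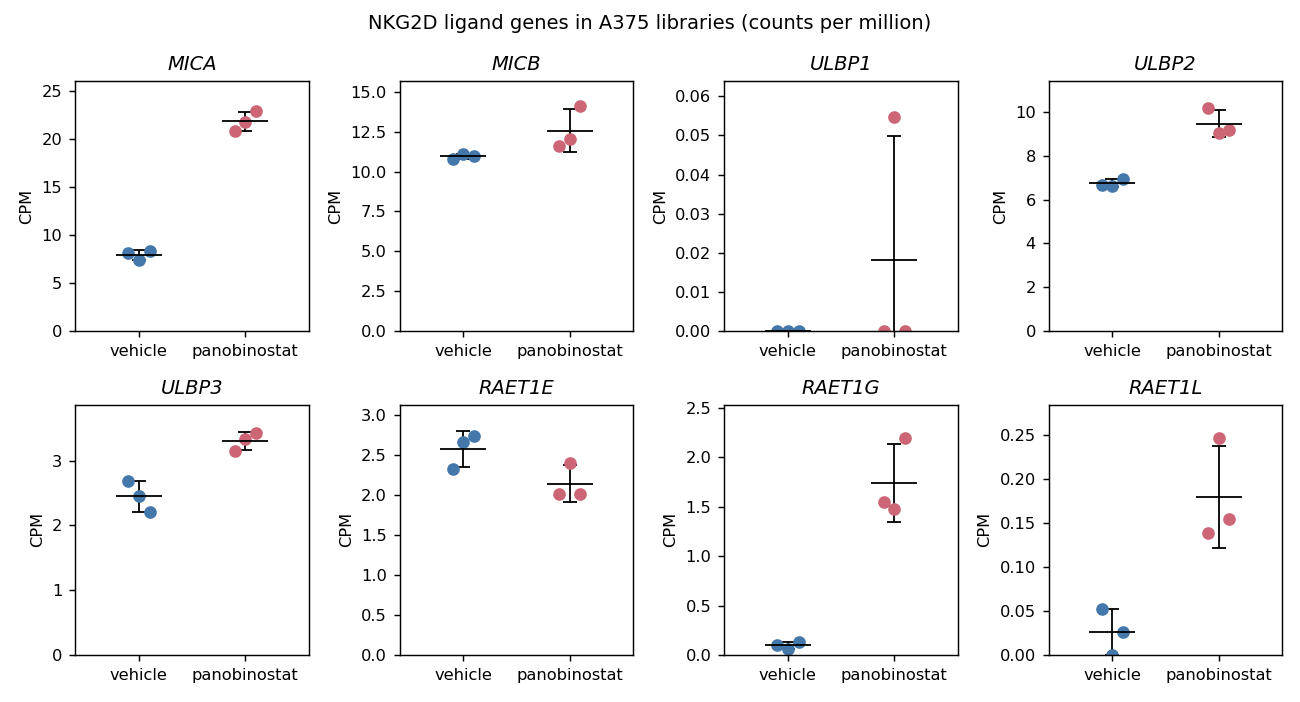
Level of each of the 8 ligand genes in CPM (vertical axis, starting at 0 and scaled for each gene) in 3 vehicle and 3 panobinostat libraries. Points are libraries, horizontal bars are means and whiskers are 1 SD; the groups are far apart for MICA (7.36 to 8.32 against 20.8 to 22.9 CPM) and RAET1G, and overlap for RAET1E and ULBP1.

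MICA, which signals stress to NKG2D and is the most polymorphic of the ligands, stood at 8.11, 7.36 and 8.32 CPM in vehicle replicates 1, 2 and 3 and at 20.8, 21.7 and 22.9 CPM with panobinostat. Every panobinostat library was above every vehicle library. The log2 change was 1.46 ± 0.07 (SE; 95% interval 1.30 to 1.61), with an edgeR adjusted p of 5.12e-12. This change lay at percentile 86.5 of all genes tested, and 2098 genes had a larger one. MICA stood at percentile 34.3 of vehicle levels, below the median gene tested. The MHC has alternate haplotype sequences in human assemblies, and no source used here says how the counting handled them, so the absolute counts of MICA and MICB are uncertain to that extent.

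MICB, the closest relative of MICA, had 418, 382 and 424 counts in vehicle and 420, 439 and 455 with panobinostat, which scale to 10.8 to 11.1 CPM and 11.6 to 14.1 CPM. On the scaled values the 3 treated libraries lay above the 3 vehicle libraries, with panobinostat replicate 3 the highest. The log2 change of 0.20 ± 0.08 (95% interval 0.03 to 0.36) passed narrowly, with an edgeR adjusted p of 0.0328. Leaving out any 1 vehicle library ended the call (0.17 without replicate 1, 0.18 without replicate 2 and 0.18 without replicate 3). It also ended when panobinostat replicate 3 was omitted (0.11) and when low-count genes were kept (0.15). Over 14 alternatives its adjusted p ranged from 0.00154 to 0.221.

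ULBP2, a GPI-anchored ligand, stood at 6.69, 6.64 and 6.95 CPM in vehicle and at 10.2, 9.05 and 9.16 CPM with panobinostat, with no overlap. Its log2 change was 0.49 ± 0.08 (edgeR adjusted p = 3.55e-05). ULBP3, another GPI-anchored ligand, was at 2.68, 2.46 and 2.20 CPM in vehicle and at 3.15, 3.34 and 3.43 CPM with panobinostat. The ranges were again separate, and the log2 change was 0.43 ± 0.13 (edgeR adjusted p = 0.00446). Both stayed called in every alternative in which they were tested.

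RAET1G, also called ULBP5, was nearly silent in vehicle. It had 4, 2 and 5 counts in vehicle replicates 1, 2 and 3 and 56, 54 and 71 counts with panobinostat. Its level went from 0.0969 ± 0.0362 to 1.74 ± 0.397 CPM, and the lowest treated library, at 1.48 CPM, was far above the highest vehicle library, at 0.130 CPM. RAET1G passed the filter on low counts only through the panobinostat libraries, so it entered the test because it was high there, and its fitted log2 change of 4.09 ± 0.33 (95% interval 3.40 to 4.78) is given as a description. On pooled counts, 11 against 181, the ratio was 17.5 with an exact 95% interval of 9.56 to 35.7 that covers counting error only. Even after this rise, RAET1G stayed below ULBP3 in CPM.

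RAET1E, which encodes ULBP4, was the tested ligand that did not follow. It stood at 2.32, 2.67 and 2.75 CPM in vehicle and at 2.02, 2.41 and 2.01 CPM with panobinostat, and the ranges overlapped through vehicle replicate 1 and panobinostat replicate 2. The log2 difference was -0.26 ± 0.14, with a 95% interval of -0.56 to 0.03 and an edgeR adjusted p of 0.0923. Without vehicle replicate 1 the difference passed as a fall (-0.35).

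ULBP1 and RAET1L, both GPI-anchored, were at the limit of detection. ULBP1 had 0 counts in 5 of 6 libraries and 2 counts in panobinostat replicate 2, under the floor of 3 counts in each library, so no change could be measured at this depth. RAET1L had 2, 0 and 1 counts in vehicle and 5, 9 and 5 with panobinostat. Pooled, 3 against 19 counts gave a ratio of 6.74 with an exact 95% interval of 1.98 to 35.6, counting error only. With no filter on low counts, edgeR called RAET1L higher (log2 change 2.56 ± 0.80, adjusted p = 0.00475) and did not call ULBP1 (adjusted p = 0.236).

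**Figure D2:**
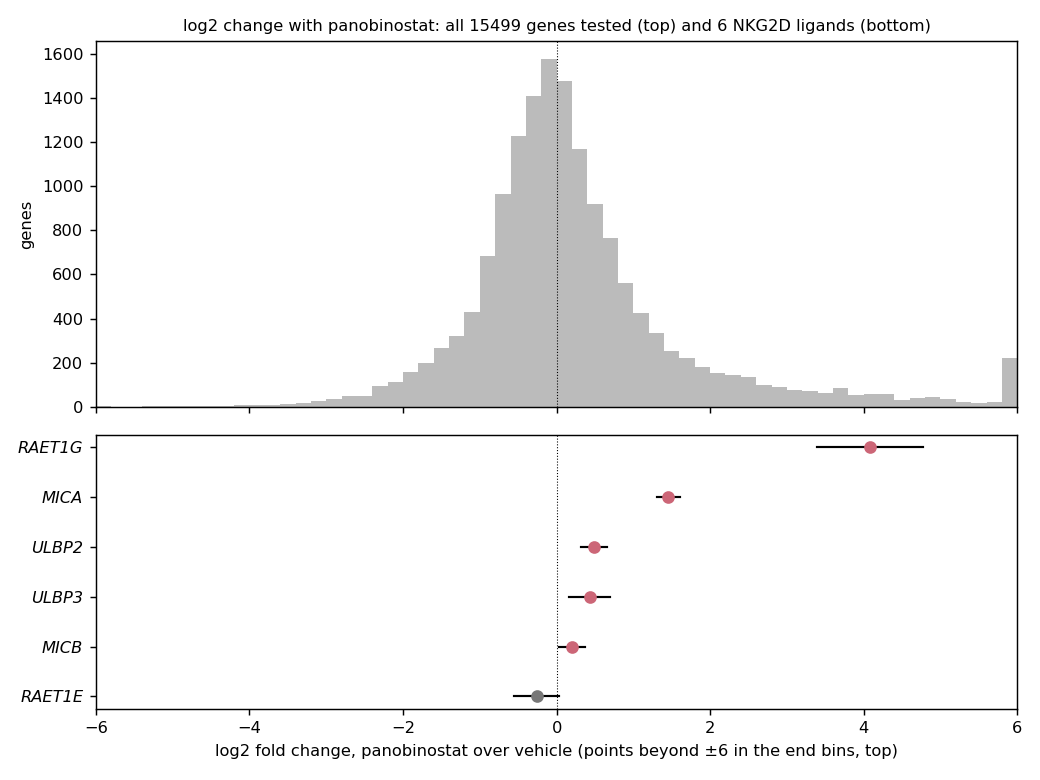
Top, histogram of log2 fold change, panobinostat over vehicle, for all 15499 genes tested (vertical axis, number of genes per bin). Bottom, the 6 tested ligands with 95% intervals, red where called higher and grey where not called; RAET1G (4.09) and MICA (1.46) lie to the right of the bulk of genes, and ULBP2, ULBP3, MICB and RAET1E lie within it.

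The make-up of the ligand pool shifted. MICA held 26.4%, 24.3% and 26.5% of the summed ligand counts in the vehicle libraries and 42.1%, 43.2% and 42.4% with panobinostat. MICB fell from first to second place, at 35.1%, 36.6% and 35.0% in vehicle and 23.5%, 23.9% and 26.1% with panobinostat, although its own level was not lower. ULBP2 went from 21.9% ± 0.201 to 18.5% ± 1.87, ULBP3 from 7.97% ± 0.867 to 6.46% ± 0.151 and RAET1E from 8.38% ± 0.710 to 4.20% ± 0.536. RAET1G went from 0.314% ± 0.113 to 3.38% ± 0.611. The group ranges of the share were separate for each of the 6 ligands with counts in all libraries. Of all genes tested, 83.4% had separate ranges in CPM, and no such figure was computed for shares within other sets of genes. RAET1G adds no support here, because it entered the edgeR test only through its panobinostat libraries. Each exact two-sided permutation p was 0.1 (adjusted 0.1 over 6), the smallest possible. The shares of a library sum to a whole and are not independent, so a larger share of MICA leaves less for the others.

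**Figure D3:**
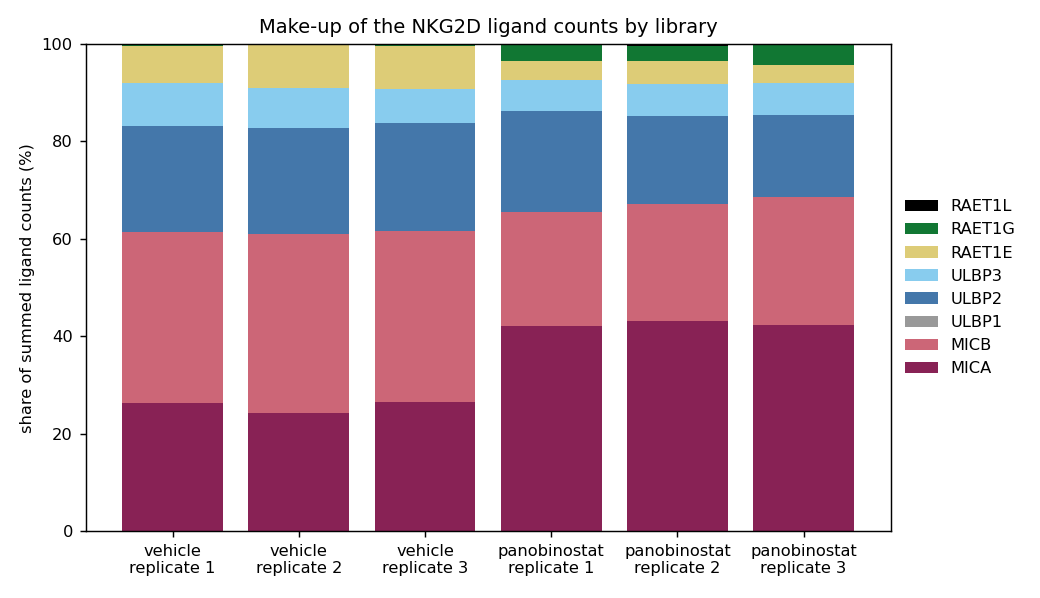
Share of the summed counts of the 8 ligand genes taken by each gene (vertical axis, percent, stacked) in the 6 libraries. MICA widens from 24.3% to 26.5% of the bar in vehicle to 42.1% to 43.2% with panobinostat, and RAET1G becomes visible near the top; ULBP1 is too thin to see.

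Shares of counts favour long transcripts, so levels were also compared per kilobase of exon, using the union of coding-transcript exons in GENCODE 29 (988 bases for ULBP3 to 3142 for ULBP1). On the scale of CPM per kilobase, the vehicle order was ULBP2 (5.01 ± 0.123), MICB (4.23 ± 0.0556), MICA (3.32 ± 0.211), ULBP3 (2.48 ± 0.244), RAET1E (0.978 ± 0.0853), RAET1G (0.0652 ± 0.0244), RAET1L (0.0192 ± 0.0192) and ULBP1 (0). Neighbours in this order had separate ranges except RAET1L and ULBP1. With panobinostat MICA led (9.14 ± 0.428), followed by ULBP2 (7.02 ± 0.467), MICB (4.85 ± 0.513), ULBP3 (3.35 ± 0.147), RAET1G (1.17 ± 0.267) and RAET1E (0.813 ± 0.0860). RAET1L (0.134 ± 0.0432) and ULBP1 (0.0058 ± 0.0101) came last, and all neighbours had separate ranges.

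The order depends on which transcripts the cells use. With the median coding transcript length in place of the union (1386 bases for MICA against 2386), MICA led in vehicle too, at 5.72 ± 0.363 CPM per kilobase, and in the panobinostat libraries RAET1E was above RAET1G. RAET1E and ULBP3 then overlapped in vehicle. With either length MICA ranked first in the panobinostat libraries.

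Whether ligands responded unequally was tested on the ratio of 2 ligands within a library, which needs no scaling between libraries. Counts of MICA per count of MICB were 0.75, 0.67 and 0.76 in vehicle and 1.79, 1.81 and 1.62 with panobinostat, so the order of the pair turned over in every treated library. The log2 ratio differed by 1.27 between groups. MICA per ULBP2 went from 1.11 to 1.21 up to 2.04 to 2.49, and MICA per ULBP3 from 2.98 to 3.76 up to 6.49 to 6.63. Counts of MICB per RAET1G were 93, 153 and 77.2 in vehicle and 7.44, 8.06 and 6.37 with panobinostat.

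Of 15 pairs of the 6 tested ligands, 13 had separate group ranges, each with an exact permutation p of 0.1, the smallest possible (0.115 adjusted over 15). The 13 include every pair with RAET1G, which entered the test only through its panobinostat libraries, so those pairs add no support. Taken singly, 83.4% of all genes tested had separate ranges, and the share over other pairs of genes was not computed. MICB and ULBP3 (exact p = 0.2, adjusted 0.214) and ULBP2 and ULBP3 (exact p = 0.6, adjusted 0.6) overlapped. The log2 ratio of ULBP2 to ULBP3 was 1.46 ± 0.173 in vehicle and 1.51 ± 0.154 with panobinostat, a difference of 0.05 whose sign changed when single libraries were left out. That these pairs overlapped does not show that they respond alike.

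Several ligands have near copies, which limits how far their counts can be told apart. Of all 50-base stretches in coding transcripts of GENCODE 29, 2.64% of those of MICA and 3.17% of those of MICB also occur in transcripts of another gene, with 45 stretches common to the pair. The shares were 32.2% for ULBP2, 31.5% for RAET1L, 18.9% for RAET1G and 12.4% for ULBP3. ULBP2 shared 382 stretches with RAET1L and 151 with RAET1G, and the longest transcripts of ULBP2 and RAET1L matched at 95.8% of 1276 aligned bases. The counts of ULBP2, RAET1L, RAET1G and ULBP3 are therefore uncertain, and no source used here says how reads with several matches were counted.

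Overlapping genes add to this. RAET1E shares 39% of its stretches, almost all with AL355312.5, a gene model that overlaps it on the same strand. RAET1E-AS1 lies antisense to RAET1E and RAET1G and had 0 counts in vehicle and 3, 4 and 0 with panobinostat. HCP5 overlaps MICA on the same strand and did not pass (log2 difference -0.09 ± 0.09, edgeR adjusted p = 0.368). The pseudogene RAET1K, which shares 212 stretches with ULBP1 and 116 with ULBP3, had 17, 9 and 20 counts in vehicle and 22, 27 and 27 with panobinostat (log2 change 0.81 ± 0.28, edgeR adjusted p = 0.013).

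Genes on either side of the ligand loci did not move in one direction. Of the 10 nearest protein-coding genes around MICA and MICB in RefSeq order (5 on each side), 6 were tested, of which 2 rose and 2 fell, or 4 rose with upper quartile scaling. With the main scaling, 41.8% of all genes tested rose and 41.0% fell, and with upper quartile scaling 7313 genes rose and 5453 fell. HLA-B, next to MICA, had a log2 difference of -0.01 with a 95% interval of -0.09 to 0.08, and HLA-C fell by 0.45. TCF19, a cell cycle gene, fell by 1.19. Beyond MICB, the vacuolar ATPase gene ATP6V1G2 rose by 0.85 and NFKBIL1 by 0.32 on the log2 scale. DDX39B, an RNA helicase gene expressed in most cells, was listed at 9, 13 and 10 counts in vehicle and 0, 3 and 1 with panobinostat and was not tested; it was singled out after its values were seen. Whether the annotation or the handling of alternate haplotypes lowered the DDX39B counts was not tested, and the same doubt extends to MICA and MICB beside it. HLA genes share reads with their relatives and are uncertain.

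Around the ULBP and RAET1 cluster, 9 of 10 neighbours were tested, and 2 rose and 6 fell, where 41.8% of all genes tested rose and 41.0% fell. Next to RAET1E, LRP11 rose by 0.78 and PCMT1, which repairs damaged proteins, by 0.70 on the log2 scale, while NUP43 and LATS1, a kinase of the Hippo pathway, each fell by 0.52. PPP1R14C, next to ULBP3, did not pass (-0.04, 95% interval -0.23 to 0.15). Farther out, the folate enzyme MTHFD1L fell by 2.02 and the scaffold AKAP12 by 1.06. KATNA1 and PLEKHG1 lost their calls as lower with upper quartile scaling, which moved the median of all genes by 0.12, and with a filter of 5 CPM in 3 libraries. Apart from RAET1G, MICA had the largest rise among the tested genes of the 2 windows. RAET1G rose more, but it entered the test only through its panobinostat libraries, so its place above the neighbours is a description. Neighbours with too few counts to test were left out of this ranking.

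**Figure D4:**
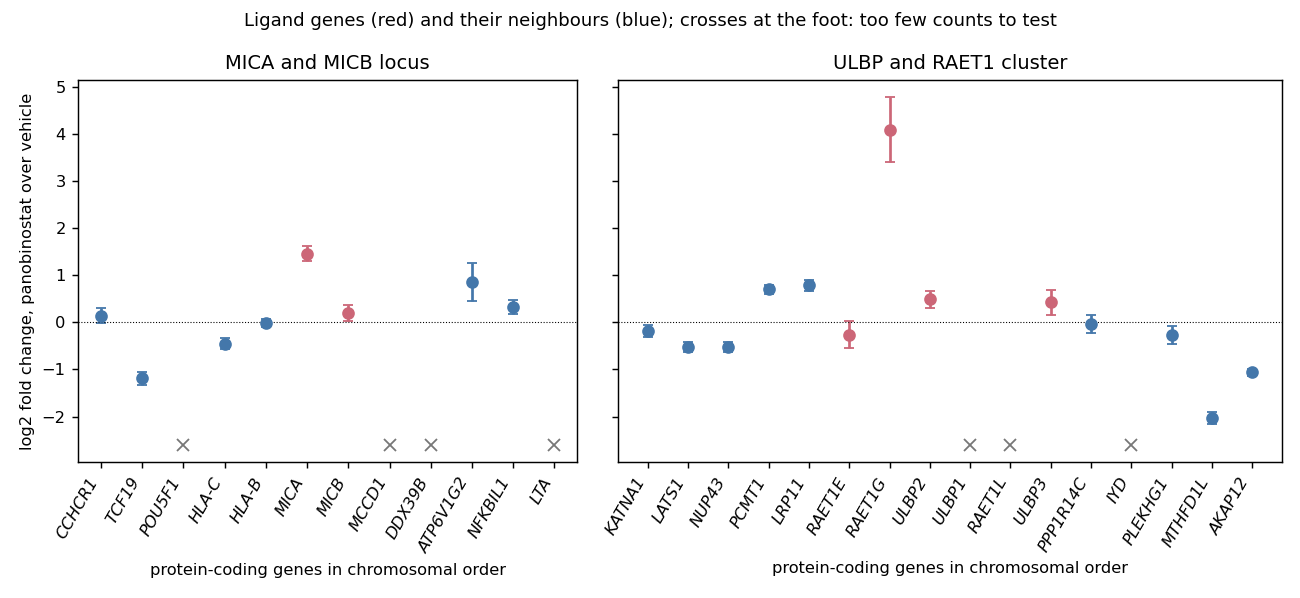
Log2 fold change, panobinostat over vehicle (vertical axis), of the ligand genes (red) and their nearest protein-coding neighbours (blue) in chromosomal order, with 95% intervals. Crosses at the foot are genes with too few counts to test. MICA stands above its tested neighbours, which lie on both sides of 0. RAET1G also does, but it entered the test only through its panobinostat libraries.

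Proteins tied to the release of MICA and MICB from the surface changed in both directions, with 5 of 11 genes higher and 5 lower (median log2 change -0.08), shares near the 41.8% and 41.0% over all genes tested. The sheddases ADAM10 and ADAM17 rose by 0.35 and 0.57, and MMP9, tested only through its panobinostat libraries, went from 0.224 ± 0.0150 to 3.41 ± 0.410 CPM. MMP14 fell by 3.05 and MMP2 by 0.99. The inhibitors split as well: TIMP1 rose by 2.95 and TIMP2 by 1.49, and TIMP3 fell by 1.61. PDIA6, a disulfide isomerase reported to aid the cleavage of MICA, fell by 0.45, and HSPA5 by 0.31. ADAM10, ADAM17, PDIA6 and HSPA5 were singled out after their values were seen. RNA levels say nothing of surface or shed protein, which was not measured in these files.

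The machinery that attaches GPI anchors, used by ULBP1, ULBP2, ULBP3 and RAET1L, had 1 of 5 subunit genes higher and 2 lower. Over all genes tested, 41.8% were called higher and 41.0% lower. GPAA1 rose from 108 ± 13.3 to 186 ± 10.7 CPM. PIGT fell by 0.25 and PIGU by 0.43, and PIGK (0.02) and PIGS (0.06) did not pass. With upper quartile scaling, or a filter of 5 CPM in 3 libraries, 2 of the 5 were higher, where 7313 and 4818 of all genes tested were higher.

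Transcription factors and checkpoint kinases that have been tied to NKG2D ligand expression fell in 12 of 18 cases and rose in 5 (median log2 change -0.73), against 41.0% lower and 41.8% higher over all genes tested. Only 3 rose when low-count genes were kept, and likewise when vehicle replicate 1 or either of panobinostat replicates 1 and 2 was omitted. NFKB1 fell from 129 ± 3.15 to 21.3 ± 1.65 CPM and the checkpoint kinase CHEK1 from 74.8 ± 1.36 to 23.2 ± 0.281 CPM. ATM and ATR, kinases of the DNA damage response that can raise NKG2D ligands, fell by 0.63 and 0.35. JUNB rose from 66.9 ± 2.53 to 171 ± 9.23 CPM, STAT3 from 194 ± 5.32 to 348 ± 3.44 CPM and RELA from 84.3 ± 4.44 to 129 ± 4.35 CPM. ATM and ATR, and HSF1 named next, were singled out after their values were seen.

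The heat shock elements in the MICA and MICB windows make the targets of heat shock factor a natural comparison. Of 4 such genes 3 rose and 1 fell, where 41.8% of all genes tested rose and 41.0% fell. Whether heat shock factor acted on the ligands was not tested. HSPA1A rose by 0.95, HSPA1B by 1.15 and DNAJB1 by 0.87 on the log2 scale, and HSPH1 fell by 0.98. HSPA1A and HSPA1B are near-identical copies, so their counts are uncertain. HSF1 itself had a log2 change of -0.16 that passed (edgeR adjusted p = 0.0263) and lost its call in 8 of 14 alternatives, including omission of replicate 1 or 2 of either group.

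Chromatin and microRNA factors fell in 8 of 13 cases and rose in 2 (median log2 change -0.40), against 41.0% lower and 41.8% higher over all genes tested. HDAC3, a deacetylase reported to repress ULBP genes, rose from 65.6 ± 2.33 to 102 ± 2.54 CPM, and HDAC1 from 198 ± 3.16 to 244 ± 5.15 CPM. UHRF1, a reader of DNA methylation, fell from 58.1 ± 3.02 to 19.6 ± 0.847 CPM, the DNA methyltransferase DNMT1 from 330.4 ± 13.3 to 179 ± 3.24 CPM and the histone methyltransferase EZH2 from 76.4 ± 1.01 to 41.9 ± 0.765 CPM. The microRNA processing enzymes DICER1 and DROSHA fell by 0.40 and 0.67, and DICER1 and DROSHA were singled out after their values were seen. How these changes bear on the ligands was not tested.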

How the data were processed

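The authors deposited whole-number read counts per gene symbol, with no normalization, for 6 libraries. The aligner is named only by the name of the deposited table, as STAR, and no source used here states its version, the build, the annotation or the strandedness. Columns were matched to samples by title and grouped by labelled dose. The table's 92 spike-in lines, at 0 counts, were left out.

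Genes passing filterByExpr were scaled by TMM and tested with edgeR 4.0.16 (robust glmQLFit, then glmQLFTest) with group as the only term, and called at a Benjamini-Hochberg adjusted p under 0.05. CPM use TMM-scaled library sizes. Sums, shares and ratios (0.5 added to counts) were tested by exact two-sided permutation. On simulated counts for panobinostat against vehicle (14365 genes tested), edgeR recovered 76% of 1.25-fold, 90% of 1.5-fold and 100% of 2-fold changes. Only 200 genes were changed in the simulation, whereas most genes were called in the data. These rates therefore need not hold for this comparison or for ligands at low counts. No library pair was identical, and the chi-square per degree of freedom within groups was between 1.90 and 9.14. Replicate 3 stood apart from replicates 1 and 2 in both groups. Its pairs had 9.14 and 5.68 in vehicle and 5.04 and 5.46 with panobinostat, against 2.35 and 1.90 between replicates 1 and 2.

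The members, the lists and the tests were chosen with earlier results of these data known, so no count of list members is independent evidence. Named genes were the 8 ligands, up to 3 called genes per direction and list by adjusted p, every gene of a list of 5 or fewer, the neighbouring genes, and the 3 genes nearest in profile to MICA, MICB, ULBP2 and ULBP3. Genes named outside it are marked as singled out, apart from genes overlapping or copying a ligand and markers at 0. A gene that this rule would name is not reported here. Alternatives were other scalings, filters, DESeq2 1.42.0, limma-voom (limma 3.58.1), a replicate block and leaving out each library, in R 4.3.3. Promoter sequences are RefSeq's (GRCh38.p14), transcript lengths GENCODE 29's.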

Additional observations from a re-analysis of the deposited data

How the results depend on the processing

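MICA, ULBP2 and ULBP3 kept their direction and their call in every alternative in which they were tested, with MICA between 1.39 and 1.58 on the log2 scale. RAET1G kept its direction and call as well, but it passed the main filter on low counts only through its panobinostat libraries. Its call is therefore a description and no further support. MICB lost its call when low-count genes were kept (0.15) and under a replicate block (0.19), and without single libraries it ranged from 0.11 to 0.25. RAET1E ranged from -0.36 to -0.22 without single libraries. With at least 5 CPM in 3 libraries 3 ligands were tested and 3 rose, where 4818 of all genes tested rose and 4934 fell. Without single libraries 4 to 5 ligands rose and 0 to 1 fell, where 6327 to 6547 of all genes tested rose and 6185 to 6506 fell. The difference in the log2 ratio of ULBP2 to ULBP3 ranged from -0.0389 (without panobinostat replicate 1) to 0.144 over omitted single libraries, and was -0.0252 without vehicle replicate 1. The other ratios, the shares, which also kept their sign per length, and the sum (log2 ratio 0.73, or 0.36 without MICA) kept their direction. With the replicate block 3 transcription factors and kinases rose instead of 5. Of the other recounts, 18 moved by over 1.5 times and 206 did not. Same-numbered libraries of the 2 groups did not deviate together (correlations -0.078, -0.058 and -0.141), so the numbers were not taken to pair them; with the replicate block 6259 genes were higher and 6150 lower, against 6471 and 6355. Depth limits ULBP1 and RAET1L, and RAET1G rests on 11 vehicle counts.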

Other observations

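The receptor's own genes were all but absent from these melanoma cells. KLRK1, which encodes NKG2D, had 0 counts in vehicle and 5, 3 and 0 with panobinostat, and TYROBP, an adaptor of activating receptors, 0 in vehicle and 2, 1 and 0. HCST, which encodes the adaptor DAP10, had 7, 7 and 4 counts in vehicle and 20, 10 and 13 with panobinostat. VAV1, a signalling protein of blood cells that acts downstream of NKG2D, had 0 vehicle counts and 50, 55 and 42 with panobinostat, a level at least 17.3-fold higher than the floor that 3 counts in each vehicle library would set, and it entered the test only through the panobinostat libraries. KLRK1, TYROBP and HCST were too low to test in the main fit and were singled out after their values were seen. Of the 3 receptor-side genes tested there, 2 were called higher and 1 lower, against 41.8% and 41.0% of all genes tested. With single libraries left out 3 receptor-side genes were called higher, and with low-count genes kept 4 were. GRB2, an adaptor used in most cells, rose from 151 ± 5.60 to 195 ± 0.985 CPM. PIK3R1 had a log2 change of -0.13, and its call was lost in 8 of 14 alternatives, among them omission of replicate 2 of either group or of panobinostat replicate 3.

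Among 10896 genes at a mean of at least 5 CPM, those nearest to MICA in profile over the 6 libraries, by Euclidean distance of log2 CPM after subtracting each gene's vehicle mean, were NOMO1, DKK3 and PALM3, at distances of 0.10, 0.10 and 0.11 log2 units. NOMO1 went from 88.1 ± 2.13 to 244.5 ± 8.44 CPM, and DKK3, a secreted relative of WNT antagonists, from 13.7 ± 0.816 to 36.5 ± 0.516 CPM. The nearest to MICB were PET112, LRIG2 and TIMM10B (0.08, 0.09 and 0.10), to ULBP2 C18orf25, LONRF2 and RASSF5 (0.08, 0.08 and 0.09), and to ULBP3 KLF16, CLUH and CDK2AP2 (0.07 each). Within 0.2 log2 units lay 28 genes for MICA, 202 for MICB, 249 for ULBP2 and 226 for ULBP3, so many others lay nearly as close as those named. Each distance describes 6 libraries in 2 groups, where most genes differ between the groups. NOMO1 has near-identical copies and its count is uncertain.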
